A study of Mus musculus with 24 samples.

Results

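Splicing factors and neuronal RNA-binding proteins are represented here by 48 mouse genes, out of 24421 gene symbols counted in the study. They were taken by name: every symbol that begins with Srsf (11 SR proteins), Hnrnp (20 hnRNPs), Elavl (4), Rbfox (3) or Celf and a digit (6), together with Nova1, Nova2, Ptbp1 and Ptbp2, leaving out symbols that contain "-ps". SR proteins mostly bind exons and recruit the spliceosome, whereas hnRNPs, among them the polypyrimidine tract proteins of the Ptbp pair, often hold splice sites back. Rbfox, Celf, Nova and the neuronal Elavl proteins set splicing, stability and translation of transcripts in neurons. N6-methyladenosine (m6A) is a methyl mark put on adenosines of mRNA by a complex of METTL3 and METTL14, and several hnRNPs and SR proteins have been reported to bind m6A-bearing RNA or its YTH readers.

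The tissue was lumbar (L4/5) dorsal root ganglion of C57BL/6 mice, which holds the cell bodies of sensory neurons with their glia. RNA-seq covered 4 groups of 3 libraries: Mettl14cKO ganglia 1 day after sciatic nerve lesion (SNLD1), Mettl14cKO naive ganglia, wild-type SNLD1 ganglia and wild-type naive ganglia. Mettl14cKO mice carry the genotype Mettl14-/- per the labels, which do not give the Cre driver or the cells that lose the gene. The treatment label of every library names both a sham operation and a sciatic nerve crush, so whether naive animals were sham-operated cannot be told from it. m6A was measured in wild-type ganglia only: by MeRIP-seq, in which fragments bound by an m6A antibody are sequenced beside their input (3 pulldown and 2 input libraries at SNLD1, 3 pulldown and 2 input libraries in naive ganglia), and by miCLIP, which places m6A at single bases from mutations left by a crosslinked antibody (1 library after lesion, labelled SNL with no day, and 1 naive). All RNA was selected for poly(A), and libraries were made by Smart-seq2. The labels do not say that libraries come from separate animals, and each p-value here speaks only of the scatter among the sequenced libraries. In bulk ganglia, fewer cells of a type and less RNA per cell cannot be told apart.

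RNA-seq libraries held 5707837 to 12639160 counts and MeRIP-seq libraries 846785 to 19653733. Levels are given as CPM, a gene's counts scaled to a common library size, after TMM scaling, which sets the bulk of genes level between libraries. Mettl14 was measured at 14.2, 16.9 and 15.6 CPM in Mettl14cKO SNLD1 ganglia, 14.2, 18.9 and 15.02 CPM in Mettl14cKO naive ganglia, 20.1, 20.7 and 19.4 CPM in wild-type SNLD1 ganglia and 23.3, 22.9 and 24.1 CPM in wild-type naive ganglia. Every Mettl14cKO library was below every wild-type library. Averaged over conditions, Mettl14 fell by 0.46 on the log2 scale (edgeR quasi-likelihood test, adjusted p = 0.0450); whether the counted exons include those deleted is not given in the sources used here. All 12 sensory neuron markers were detected in every library. Their summed level was 15127 to 15950 CPM in Mettl14cKO SNLD1, 13520 to 15600 CPM in Mettl14cKO naive, 15677 to 16956 CPM in wild-type SNLD1 and 15606 to 16938 CPM in wild-type naive ganglia. The 5 neutrophil markers summed to 1555 CPM in wild-type SNLD1 library 2 and 1334 CPM in wild-type naive library 2, against 153 to 697 CPM in the other 10. Those 2 libraries deviated from their groups in the same direction across genes (correlation of the deviations 0.57), so genotype results are also given without them.

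The miCLIP lists placed 104 sites in the members, 59 of the 18677 sites of the SNL list and 45 of the 14446 sites of the naive list. That is 0.316% of the SNL list (95% exact binomial interval 0.241 to 0.407%) and 0.312% of the naive list (0.227 to 0.417%); the intervals cover counting error only. In all 28 of 48 members had a site, 15 of them in both lists. Of the 44 members that passed the count filter of the RNA-seq test, 26 had a site (59.1%), against 43.5% of 13259 genes that passed it and were matched to coordinates. With 1 library per condition there is no test of these shares, and the part of span length and transcript level in them was not tested. Sites were unevenly spread over the families. All 3 Rbfox genes had sites (34 in all), as did 16 of 20 hnRNPs (45 sites), 3 of 4 Elavl genes (8), 4 of 11 SR proteins (11) and 2 of 6 Celf genes (6), while neither Nova1, Nova2, Ptbp1 nor Ptbp2 had any.

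Rbfox3, which encodes the neuronal splicing regulator also known as the antigen NeuN, had 12 SNL and 11 naive sites, 22.1% of all member sites. They fall on 17 positions, and 9 of these lie within 1341 bases of chromosome 11 (118489874 to 118491214, minus strand, mm10), 114 to 1454 bases from the 3' end of the gene's span. The 6 positions listed in both libraries all lie in that stretch. They are listed here with the 5 bases that the authors' lists give for each, the listed adenosine in capitals, because each is listed at the same base in both libraries. All are on the minus strand.
Rbfox3 chr11:118489900: ggAcc
Rbfox3 chr11:118490181: gaAca
Rbfox3 chr11:118490318: ggAcc
Rbfox3 chr11:118490323: gaAca
Rbfox3 chr11:118490455: ggAcc
Rbfox3 chr11:118490549: ggAca

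Of these 6 positions, 4 read ggAc and 2 gaAc. Every position in the authors' lists has a purine just before the adenosine and a cytosine just after it. Those bases therefore do not set the 6 apart from other listed sites. Reads over the base at the 6 positions were 5, 26, 15, 15, 7 and 13 in the SNL library, in the order of the lines above. In the naive library they were 2, 28, 13, 9, 10 and 8. Of these, 1 to 2 reads were mutated in the SNL library and 1 to 3 in the naive library at each base. The mutated share at chr11:118490549 was 7.69% in the SNL library and 37.5% in the naive library, which rests on 1 of 13 and 3 of 8 reads. Outside the stretch Rbfox3 had 8 more positions, 3 of them 2077 to 2118 bases from the 5' end of the span and none in both lists.

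**Figure D1:**
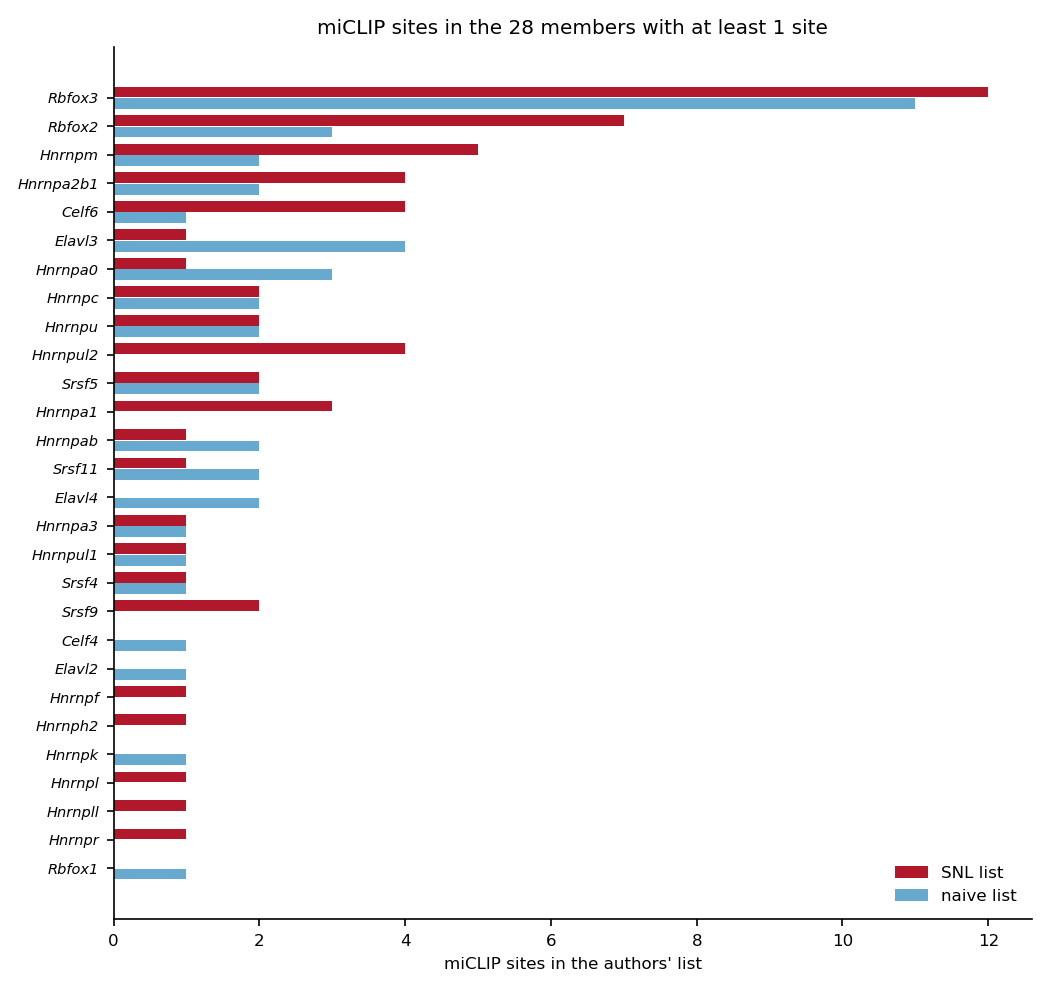
Number of miCLIP sites in the authors' list (horizontal axis) for each of the 28 members with at least 1 site, SNL list above naive list. Rbfox3 has 12 SNL and 11 naive sites, followed by Rbfox2 with 7 and 3 and Hnrnpm with 5 and 2; the other 25 have 6 or fewer over both lists.

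The next members by site number were Rbfox2, which encodes a splicing regulator of the same family found in many tissues, with 7 SNL and 3 naive sites, Hnrnpm with 5 and 2, Hnrnpa2b1 with 4 and 2, Celf6 with 4 and 1 and Elavl3 with 1 and 4. Hnrnpa0, Hnrnpc, Hnrnpu, Hnrnpul2 and Srsf5 had 4 each. HNRNPA2B1 has been proposed as a nuclear reader of m6A, and HNRNPC binding has been reported to follow changes of RNA structure at m6A. Hnrnpul2, Hnrnpa1 and Srsf9 were listed only in the SNL library, with 4, 3 and 2 sites. Elavl4, the neuronal RNA stabilizer HuD, was listed only in the naive library, with 2 sites. Which list a gene is in rests on 1 library each. The sites outside Rbfox3 that both libraries list at the same base include 1 each in Rbfox2, Hnrnpm, Hnrnpc and Srsf5, shown here as examples. Hnrnpa0, Hnrnpa3, Hnrnpab and Hnrnpu have 1 such site each as well. Of the 4 shown, Srsf5 is on the plus strand and the others on the minus strand.
Rbfox2 chr15:77084085: ggAct
Hnrnpm chr17:33649713: tgAcc
Hnrnpc chr14:52103933: agAct
Srsf5 chr12:80945659: agAcc

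Each of these was covered by 3 to 8 reads and carried 1 mutated read in either library. The same-base sites of Hnrnpa0, Hnrnpa3, Hnrnpab and Hnrnpu, not printed above, had 7 to 15 reads. In the naive library 3 reads were mutated for Hnrnpa0 and 2 for Hnrnpa3, and otherwise 1. Of the 59 SNL member sites 14 (23.7%) were listed at the same base in the naive library, and these are 31.1% of the 45 naive ones. Rbfox3 alone holds 6 of the 14, so both member shares lean on 1 gene. Over all sites the shares were 20.5% of the SNL list and 26.5% of the naive list. Most member sites rested on a single mutated read, 53 of 59 in the SNL list and 37 of 45 in the naive list (89.8% and 82.2%; over all sites 89.7% and 90.2%). The median member site had 5 reads in the SNL library and 4 in the naive library. At the 90 distinct member positions the bases were ggAc at 30 (33.3%, 95% exact binomial interval 23.7 to 44.1%), tgAc at 22 (24.4%), gaAc at 16 (17.8%) and agAc at 13 (14.4%, 7.92 to 23.4%). Over all 29291 positions of both lists ggAc made up 37.8%, tgAc 20.9%, gaAc 11.2% and agAc 23.6%.

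Along the gene, 12 of 47 SNL member sites with a known strand lay within 2 kb of the 3' end of the span (25.5%) and 14 within 2 kb of its 5' end (29.8%). In the naive list 12 of 41 lay near the 3' end (29.3%) and 14 near the 5' end (34.1%). Of the sites near the 3' end, 8 in the SNL list and 7 in the naive list are the 1 stretch of Rbfox3. Rbfox2, with 10 sites, has no known strand here and is left out of these shares. Over all genes the shares were 32.4% and 19.0% in the SNL list and 32.8% and 19.9% in the naive list. The 4 SNL sites of Celf6 lie 89 to 272 bases from the 5' end. Exons and untranslated regions are not resolved here. For Celf6 and Srsf11 a site lies in the promoter window of the RefSeq table (build GRCm38.p6), so the surrounding 21 bases can be printed, with the authors' 5 bases in capitals.
Celf6 chr9:59578366-59578386, plus strand, SNL list: cggggcggGGACAtggccgcg
Srsf11 chr3:158036571-158036591, minus strand, naive list: agctcccgGGACCgcaggacc

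Both of these sites rest on 1 mutated read of 2. In the 793 sites of both lists that lie in such windows the listed base was the adenosine at the centre of the authors' 5 bases in all 793.

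MeRIP-seq asked which transcripts the antibody enriched over input. Of the 46 members that passed the count filter none was called at SNLD1 or in naive ganglia at an adjusted p under 0.05 (edgeR; background 0% of 14705 genes in both conditions), and none was called by DESeq2. At an unadjusted p under 0.05 there was 1 member among 608 genes at SNLD1 and 3 members among 915 genes in naive ganglia. The pulldown libraries numbered 3 resembled the inputs (correlation of log CPM 0.830 to 0.930) more than the other pulldowns (0.671 to 0.778), and the shallowest libraries held 846785, 927807 and 1534778 counts. On data simulated for the SNLD1 comparison the test recovered 83% of genes changed 32-fold and 1% of those changed 4-fold.

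By level, the members' median pulldown over input was -0.37 on the log2 scale at SNLD1 (all genes 0.10) and -0.56 in naive ganglia (all genes 0.07). At SNLD1 27 of 46 members were below 0 and in naive ganglia 33 of 46. The SR proteins stood at a median of -0.13 at SNLD1 and -0.53 in naive ganglia, with 7 and 10 of 11 below 0. Members with a miCLIP site had a median of -0.02 at SNLD1 and -0.28 in naive ganglia (28 members), and those without had -0.51 and -0.96 (18 members). Over all genes the medians were 0.34 and 0.32 with a site, and -0.08 and -0.15 without. Without both pulldown libraries numbered 3, a choice made after seeing the data, the members' median was -0.76 at SNLD1 and -0.89 in naive ganglia. Single libraries moved it the other way: at SNLD1 it was 0.0025 without SNLD1 input 2 and 0.011 without SNLD1 pulldown 2, and in naive ganglia -0.12 without naive input 2.

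Hnrnpc, which encodes a protein that binds uridine runs in nascent transcripts, was measured at 31.8, 22.1 and 295 CPM in SNLD1 pulldowns 1, 2 and 3, against 521 and 298 CPM in SNLD1 inputs 1 and 2, and 35.96, 106 and 311 CPM in naive pulldowns, against 546 and 489 CPM in naive inputs. In both conditions every pulldown was below both inputs, and pulldown 3 came closest to them. The log2 enrichment was -1.81 ± 1.07 (SE) at SNLD1 and -1.78 ± 1.07 in naive ganglia. Srsf3, whose protein is a small SR protein that also helps export mRNA, had 14.5, 0 and 228 CPM in SNLD1 pulldowns 1, 2 and 3, against 267 and 169.7 CPM in SNLD1 inputs 1 and 2, and 14.6, 8.48 and 202 CPM in naive pulldowns, against 261 and 184 CPM in naive inputs. Here pulldowns 1 and 2 were below both inputs and pulldown 3 lay between the inputs, in each condition. No Srsf3 read was counted in SNLD1 pulldown 2, which at its depth allows up to 1.95 CPM (3 counts). Without both pulldowns numbered 3, Hnrnpc fell by 3.91 on the log2 scale in the SNLD1 pulldowns (edgeR adjusted p = 0.0435, against a background of 0.806% of 14522 genes called); the naive value was -2.88 (adjusted p = 0.0724), and Srsf3 reached -4.82 and -4.24 (adjusted p = 0.0679 and 0.0778 by edgeR).

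Ptbp2, the neuronal polypyrimidine tract protein, was measured at 21.1, 3.96 and 68.1 CPM in SNLD1 pulldowns 1, 2 and 3, against 226 and 72.5 CPM in SNLD1 inputs 1 and 2, and 28.5, 3.77 and 71.3 CPM in naive pulldowns, against 222 and 171 CPM in naive inputs. All 3 pulldowns were below both inputs in each condition, and those of library 3 came closest to them. Srsf7, an SR protein with a part in mRNA export, followed at 58.4, 49.2 and 109 CPM in SNLD1 pulldowns 1, 2 and 3, against 449 and 169.8 CPM in SNLD1 inputs 1 and 2, and 46.6, 98.02 and 102 CPM in naive pulldowns, against 434 and 254 CPM in naive inputs. Here too every pulldown was below both inputs. Srsf10, whose protein represses splicing when dephosphorylated, had 10.4, 0.566 and 50.8 CPM in SNLD1 pulldowns 1, 2 and 3, against 76.1 and 32.8 CPM in SNLD1 inputs 1 and 2, and 11.5, 8.48 and 47.1 CPM in naive pulldowns, against 95.6 and 140.4 CPM in naive inputs; SNLD1 pulldown 3 was above SNLD1 input 2, so the groups overlapped at SNLD1 and did not in naive ganglia. Before TMM scaling, 3 counts are 1.95 CPM in SNLD1 pulldown 2 and 3.54 CPM in naive pulldown 2. The Srsf10 value in SNLD1 pulldown 2 lies below that level, and the Ptbp2 value in naive pulldown 2 lies close to it. Ptbp2, Srsf7 and Srsf10 have no miCLIP site in either list, as is the case for Srsf3. Their edgeR log2 enrichments over all libraries were -2.25, -2.10 and -1.37 at SNLD1 and -2.49, -2.07 and -2.38 in naive ganglia, with an adjusted p of 0.791 or more at SNLD1 and 0.710 or more in naive ganglia.

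**Figure D2:**
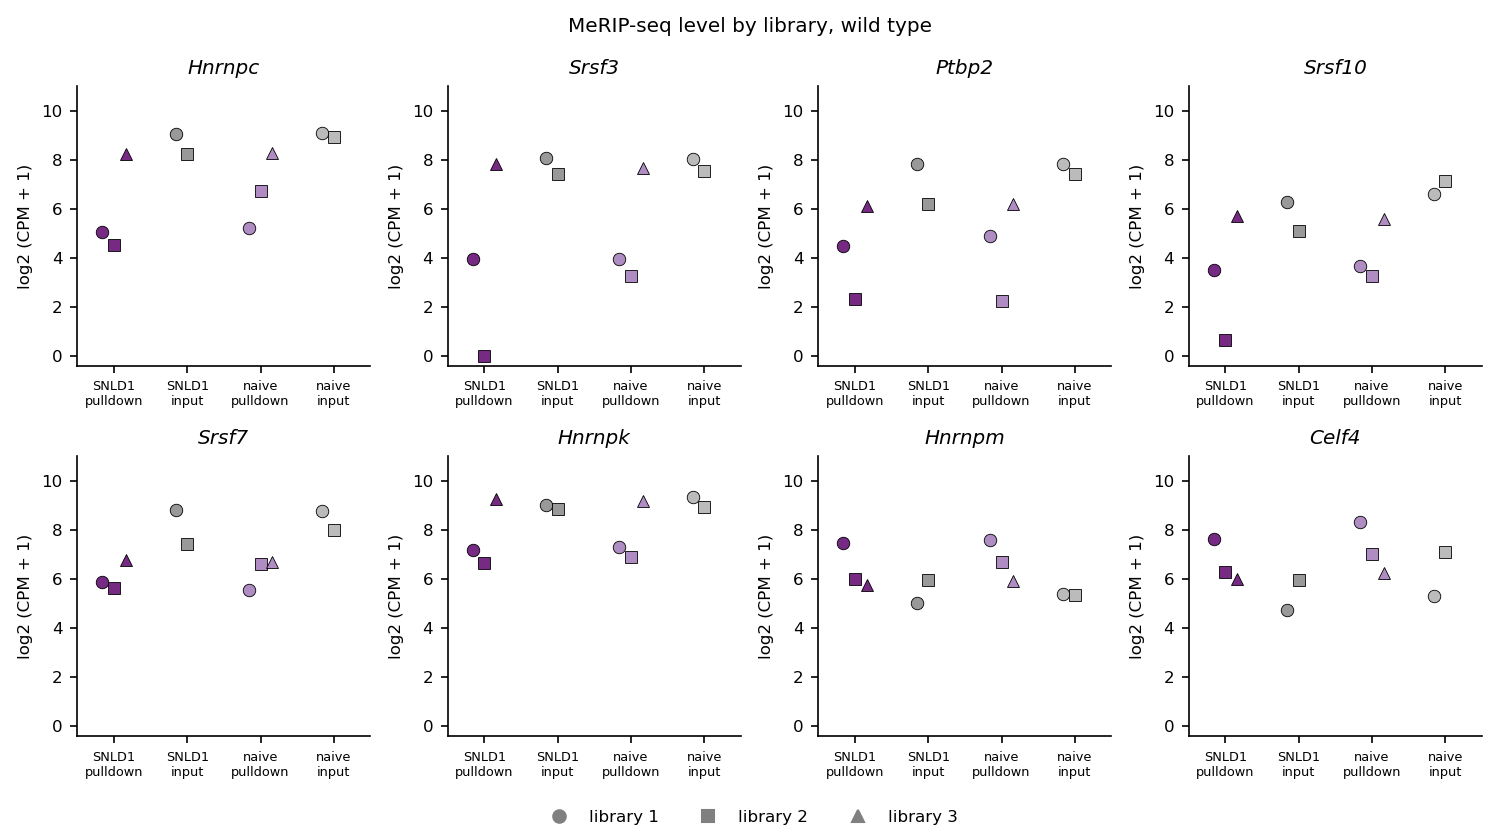
MeRIP-seq level of 8 members in each wild-type library as log2 (CPM + 1), by group; circles, squares and triangles are libraries numbered 1, 2 and 3. For Hnrnpc, Srsf3 and Hnrnpk the pulldowns numbered 1 and 2 sit below the inputs and those numbered 3 closest to them, while Hnrnpm and Celf4 are highest in pulldowns numbered 1.

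Hnrnpk, which encodes a protein that binds cytosine-rich RNA, had 144, 101 and 610.1 CPM in SNLD1 pulldowns 1, 2 and 3, against 514 and 469 CPM in SNLD1 inputs 1 and 2, and 159.8, 119 and 574 CPM in naive pulldowns, against 646 and 486 CPM in naive inputs; again the pulldowns numbered 1 and 2 were below both inputs and those numbered 3 were not. On the other side, Hnrnpm, a repressor and activator of exon inclusion, had 179, 63.9 and 53.8 CPM in SNLD1 pulldowns 1, 2 and 3, against 32.1 and 61.7 CPM in SNLD1 inputs 1 and 2, and 191, 104 and 60.1 CPM in naive pulldowns, against 40.8 and 39.6 CPM in naive inputs. Its naive pulldowns were all above both naive inputs, whereas at SNLD1 the groups overlapped, and the log2 enrichments were 1.07 ± 0.84 at SNLD1 and 1.56 ± 0.85 in naive ganglia. Celf4, a CELF protein of neurons, had 200.5, 76.9 and 64.1 CPM in SNLD1 pulldowns 1, 2 and 3, against 26.2 and 61.6 CPM in SNLD1 inputs 1 and 2, and 318, 128 and 75.6 CPM in naive pulldowns, against 39.02 and 137 CPM in naive inputs. Its SNLD1 pulldowns were all above both SNLD1 inputs, while 2 of the 3 naive pulldowns were below naive input 2. Hnrnpf, a binder of guanine runs, had its highest values in the pulldowns numbered 3 (303 CPM at SNLD1 and 238 CPM in naive ganglia, against 24.5 to 53.7 CPM in the other 8 libraries). Srsf2, a mark of nuclear speckles, had 396 CPM in naive input 2 and 10.7 to 67.6 CPM in the other 9 libraries, so that its naive enrichment of -2.96 ranged from -3.83 to -0.41 when libraries were left out in turn. Srsf4 and Celf5 had the largest positive log2 values in naive ganglia (4.70 and 3.20), at levels of no more than 5.15 CPM in any library.

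The change of enrichment with injury was called for no member and no gene (edgeR; background 0%), with 0 members and 30 genes at an unadjusted p under 0.05 and no member called by DESeq2. Its median was 0.27 on the log2 scale over members and 0.05 over all genes, beside a median standard error of 1.41 for a member. The members' median was below 0 without naive input 2 (-0.19), without naive pulldown 2 (-0.13) or without SNLD1 pulldown 3 (-0.28), and reached 0.69 without naive pulldown 3. The members with the smallest p above 0 were Srsf2 (2.44), Hnrnph2 (0.89) and Hnrnpu (1.01), and below 0 Celf5 (-2.25), Srsf4 (-1.47) and Hnrnpm (-0.49), in log2. Hnrnpu, which encodes the nuclear scaffold protein SAF-A, had 76.7, 18.1 and 132 CPM in SNLD1 pulldowns 1, 2 and 3, against 89.2 and 116 CPM in SNLD1 inputs 1 and 2, and 94.8, 46.2 and 139.8 CPM in naive pulldowns, against 95.9 and 418 CPM in naive inputs. Hnrnph2, a relative of Hnrnpf, had 71.7, 97.3 and 189.8 CPM in SNLD1 pulldowns 1, 2 and 3, against 151 and 47.7 CPM in SNLD1 inputs 1 and 2, and 67.2, 106 and 164 CPM in naive pulldowns, against 171 and 174 CPM in naive inputs. The signs of Srsf2, Hnrnpu, Celf5, Srsf4 and Hnrnpm turned when single libraries were left out.

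The genotype comparison asked which transcripts differ when Mettl14 is reduced. Averaged over naive and SNLD1 ganglia, 2 of the 44 members tested fell, Srsf10 and Elavl4, and none rose. In that comparison 171 of 13291 genes fell (1.29%) and 271 rose (2.04%), and the members' share rests on 2 genes. At an unadjusted p under 0.05 there were 8 of 44 members (18.2%), against 17.0% of all genes. In all 32 of 44 members lay below 0 with a median of -0.11, against 50.3% of all genes and a median of -0.0013. The 4 members below the count filter were Celf5, Hnrnpul1, Nova2 and Srsf4, with at most 1.24 CPM in any library. DESeq2 called the same 2 members, against a background of 273 of 13291 genes lower (2.05%) and 374 higher (2.81%).

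Srsf10 was measured at 79.6, 79.3 and 98.5 CPM in Mettl14cKO SNLD1 ganglia, 95.2, 90.96 and 87.2 CPM in Mettl14cKO naive ganglia, 127, 128 and 132 CPM in wild-type SNLD1 ganglia and 161, 122 and 100 CPM in wild-type naive ganglia. All 6 Mettl14cKO libraries were below all 6 wild-type libraries. Averaged over conditions it fell by 0.54 ± 0.12 on the log2 scale, 1.45-fold lower in Mettl14cKO (edgeR, adjusted p = 0.0175). Within conditions the log2 differences were -0.59 ± 0.17 at SNLD1 (adjusted p = 0.0887 by edgeR) and -0.49 ± 0.17 in naive ganglia (adjusted p = 0.417). The averaged call held in 10 of 12 fits that each left out 1 library. It was lost without wild-type naive library 1 (adjusted p = 0.0542, edgeR) and without Mettl14cKO SNLD1 library 1 (adjusted p = 0.0654).

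Elavl4 was measured at 814, 728 and 901 CPM in Mettl14cKO SNLD1 ganglia, 1068, 1040.2 and 1048 CPM in Mettl14cKO naive ganglia, 1146, 1289 and 1180.5 CPM in wild-type SNLD1 ganglia and 1263, 1442 and 1038 CPM in wild-type naive ganglia. At SNLD1 the genotypes did not overlap, while wild-type naive library 3 was at the level of the Mettl14cKO naive libraries. Averaged over conditions Elavl4 fell by 0.41 ± 0.10 on the log2 scale, 1.32-fold lower in Mettl14cKO (edgeR, adjusted p = 0.0414). The log2 difference was -0.56 ± 0.15 at SNLD1 (adjusted p = 0.0643, edgeR) and -0.25 ± 0.15 in naive ganglia (adjusted p = 0.803). The averaged call held in 2 of the 12 fits that left out 1 library, and without both wild-type libraries numbered 2 the difference was -0.32 (adjusted p = 0.0966, edgeR).

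Among the other Elavl genes, Elavl1 encodes HuR, the member of the family present in most cells, and Elavl2 and Elavl3 encode the neuronal HuB and HuC. Elavl1 was at 26.995, 29.2 and 28.3 CPM in Mettl14cKO SNLD1 ganglia, 28.7, 26.9 and 36.999 CPM in Mettl14cKO naive ganglia, 32.04, 40.6 and 39.9 CPM in wild-type SNLD1 ganglia and 31.9, 40.5 and 26.6 CPM in wild-type naive ganglia. Elavl3 was at 14.2, 15.4 and 15.99 CPM in Mettl14cKO SNLD1 ganglia, 13.002, 15.01 and 23.1 CPM in Mettl14cKO naive ganglia, 23.3, 14.3 and 28.7 CPM in wild-type SNLD1 ganglia and 21.8, 14.5 and 24.1 CPM in wild-type naive ganglia. Elavl2 was at 266, 214 and 314 CPM in Mettl14cKO SNLD1 ganglia, 315, 435 and 393 CPM in Mettl14cKO naive ganglia, 315, 417 and 278 CPM in wild-type SNLD1 ganglia and 302, 369 and 283 CPM in wild-type naive ganglia. At SNLD1 all 4 Elavl genes lay below 0 (log2 -0.41, -0.35, -0.54 and -0.56 for Elavl1 to Elavl4), with no overlap between genotypes for Elavl1 and Elavl4. In naive ganglia Elavl2 lay above 0 (0.26) and the other 3 below. Elavl3 in particular was low in both wild-type libraries numbered 2, and without them it fell by 0.60 on average (edgeR adjusted p = 0.0460, background 1.89% of 13447 genes called lower), against -0.39 with them (adjusted p = 0.303).

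**Figure D3:**
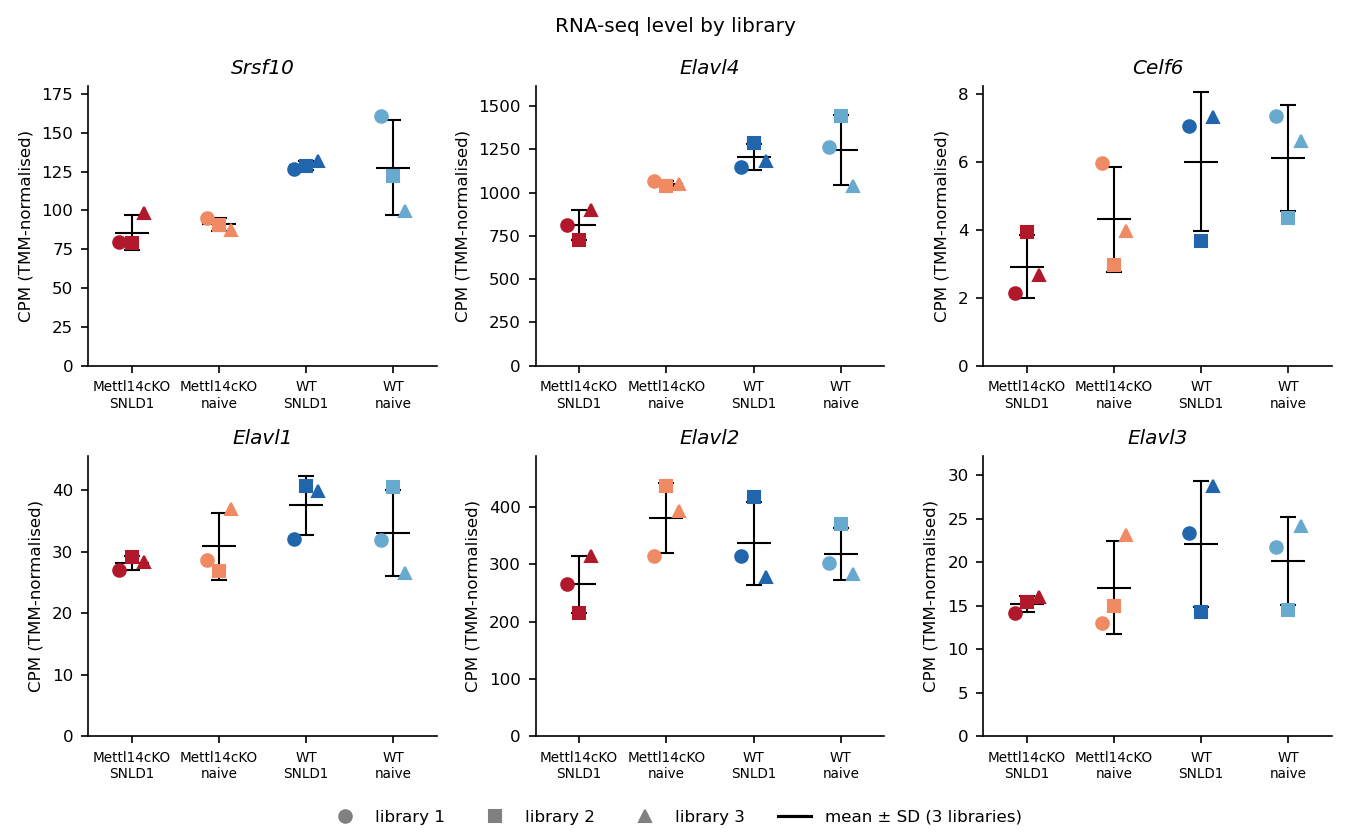
RNA-seq level (CPM after TMM scaling) of Srsf10, Elavl4, Celf6, Elavl1, Elavl2 and Elavl3 in each library; horizontal bars and whiskers are the mean and SD of 3 libraries. For Srsf10 all 6 Mettl14cKO libraries lie below all 6 wild-type libraries; Celf6 and Elavl3 are lowest among wild-type libraries in those numbered 2.

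Celf6, another CELF splicing regulator, was at 2.13, 3.95 and 2.67 CPM in Mettl14cKO SNLD1 ganglia, 5.98, 2.97 and 3.97 CPM in Mettl14cKO naive ganglia, 7.05, 3.66 and 7.32 CPM in wild-type SNLD1 ganglia and 7.35, 4.36 and 6.61 CPM in wild-type naive ganglia. Its averaged log2 difference was -0.76 ± 0.25 (edgeR adjusted p = 0.108). Without both wild-type libraries numbered 2, Celf6 fell by 0.99 (adjusted p = 0.0239, edgeR) and Srsf10 by 0.56 (adjusted p = 0.0278). That fit thus called Srsf10, Celf6 and Elavl3, of which 1 is shared with the pair called over all libraries. Celf4 showed the same low values in the wild-type libraries numbered 2, at 38.5, 38.05 and 26.5 CPM in Mettl14cKO SNLD1 ganglia, 43.9, 30.2 and 52.3 CPM in Mettl14cKO naive ganglia, 51.5, 30.5 and 50.2 CPM in wild-type SNLD1 ganglia and 57.4, 29.2 and 51.99 CPM in wild-type naive ganglia. Celf1, Celf2 and Celf4 had averaged differences of -0.15, -0.09 and -0.25, and Celf3, with no library above 1.59 CPM, had 0.11 ± 0.55.

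Hnrnpa0, Hnrnpd and Hnrnpdl had the smallest p-values among members higher in Mettl14cKO, without passing the test. Hnrnpa0, a binder of AU-rich elements, was at 16.7, 23.1 and 14.2 CPM in Mettl14cKO SNLD1 ganglia, 26.8, 16.1 and 20.4 CPM in Mettl14cKO naive ganglia, 17.9, 12.7 and 11.1 CPM in wild-type SNLD1 ganglia and 12.9, 9.41 and 19.3 CPM in wild-type naive ganglia; the groups overlapped in both conditions and its averaged log2 difference was 0.48 (edgeR adjusted p = 0.202). Hnrnpd, whose protein AUF1 promotes decay of transcripts with such elements, was at 29.8, 32.6 and 28.9 CPM in Mettl14cKO SNLD1 ganglia, 33.2, 29.9 and 41.2 CPM in Mettl14cKO naive ganglia, 25.4, 26.2 and 24.8 CPM in wild-type SNLD1 ganglia and 30.1, 25.5 and 28.4 CPM in wild-type naive ganglia, and here every Mettl14cKO library was above every wild-type library of its condition except that Mettl14cKO naive library 2 lay below wild-type naive library 1. Its averaged difference was 0.28 (adjusted p = 0.209, edgeR). Hnrnpdl, a close relative of Hnrnpd, was at 31.6, 31.6 and 26.8 CPM in Mettl14cKO SNLD1 ganglia, 31.4, 31.6 and 36.9 CPM in Mettl14cKO naive ganglia, 33.4, 23.1 and 22.2 CPM in wild-type SNLD1 ganglia and 30.9, 19.5 and 20.8 CPM in wild-type naive ganglia and averaged 0.34 (adjusted p = 0.231); its naive groups did not overlap.

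Hnrnpa3 stood at 107, 103 and 108 CPM in Mettl14cKO naive and 88.6, 94.6 and 70.9 CPM in wild-type naive ganglia, a log2 difference of 0.32 (edgeR adjusted p = 0.667) with no overlap. On the lower side in naive ganglia, Hnrnpm stood at 35.3, 26.4 and 25.95 CPM in Mettl14cKO and 45.3, 34.9 and 37.1 CPM in wild type (-0.42). Hnrnph3 stood at 2.84, 2.44 and 1.49 CPM in Mettl14cKO and 3.97, 3.55 and 3.04 CPM in wild type (-0.65); neither passed the test, and the Hnrnpm groups overlapped. Over the 19 hnRNPs tested the averaged median was -0.04, with 8 above and 11 below 0, against -0.09 for the 10 SR proteins (3 above, 7 below), -0.32 for the 4 Elavl, -0.15 for the 3 Rbfox and -0.15 for the 5 Celf genes.

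In the separate conditions no member was called by edgeR: 0 of 44 at SNLD1 (background 1.46%) and 0 of 44 in naive ganglia (background 0.286%). At an unadjusted p under 0.05 there were 5 members at SNLD1, among them Elavl4, Srsf10 and Celf6, and 4 in naive ganglia. The share of all genes at that threshold is not set beside these counts, so they are not a result about the members. DESeq2 called Elavl4 (adjusted p = 0.0110) and Srsf10 (adjusted p = 0.0357) at SNLD1 and no member in naive ganglia; its background at SNLD1 was 3.13% of genes. The members' median was -0.12 at SNLD1 (all genes 0.00401; 31 of 44 below 0) and -0.08 in naive ganglia (all genes 0.00387; 29 of 44 below 0). Without wild-type naive library 1 the naive median was -0.0071, with 22 of 44 below 0. Replicate libraries of one group differed in the members' median level by an SD of 0.161 on the log2 CPM scale. That is a spread of single libraries, not of differences between group means, so these medians cannot be measured against it directly. The members' median deviation of a library from its group mean ran from -0.17 (wild-type naive library 3) to 0.10 (wild-type naive library 1). On data simulated for the SNLD1 comparison the test recovered 93% of genes changed 2-fold. Smaller changes, such as those of Srsf10 and Elavl4, were not simulated.

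**Figure D4:**
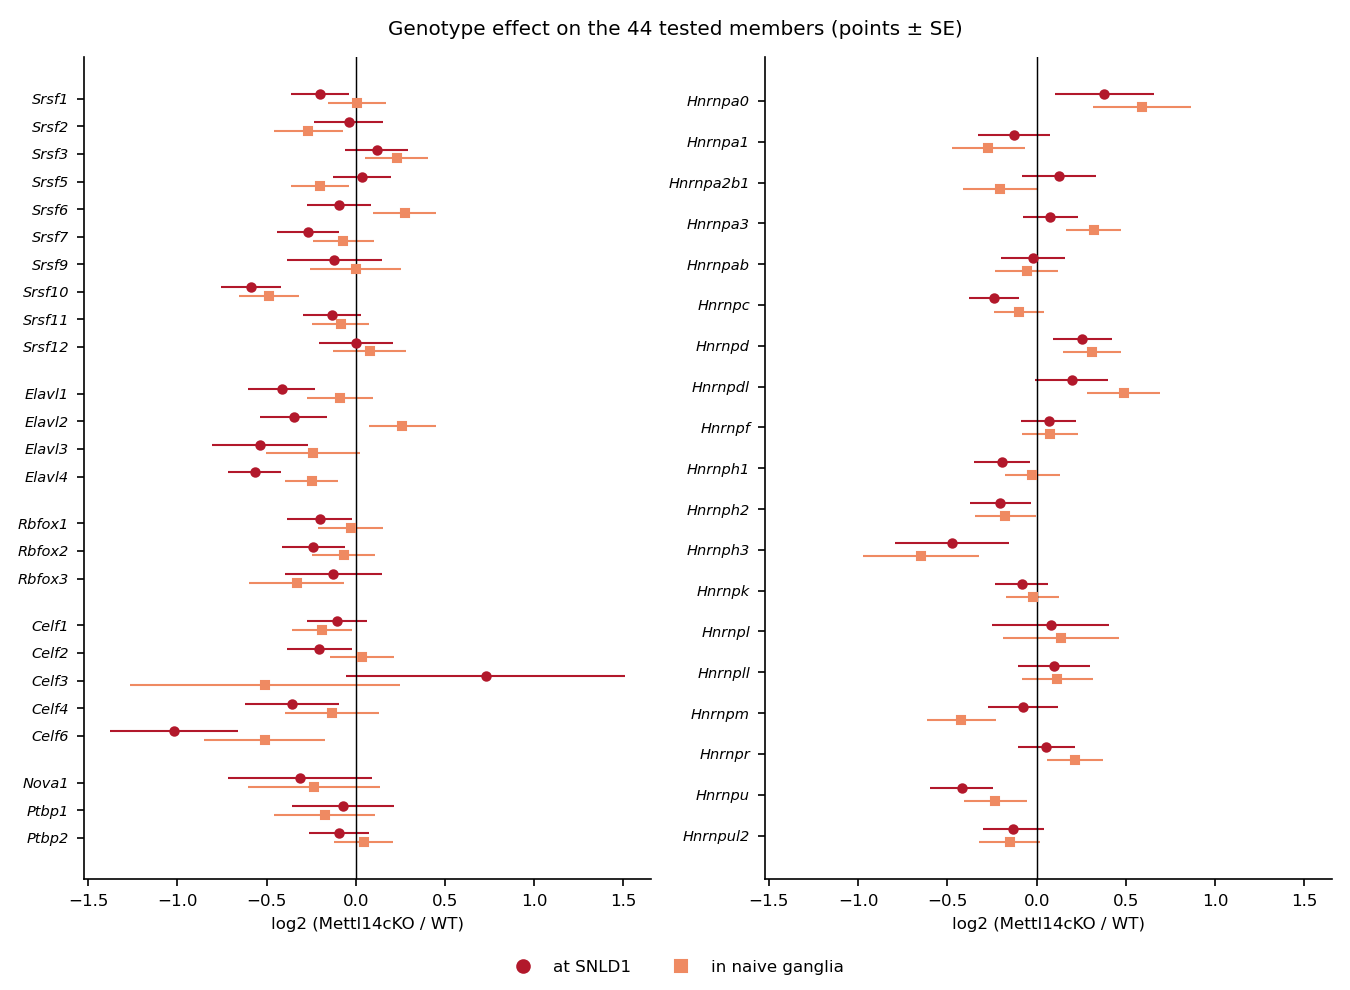
log2 ratio of Mettl14cKO over wild type with its standard error for the 44 tested members, at SNLD1 (circles) and in naive ganglia (squares), by family. Srsf10 is at -0.59 and -0.49 and Elavl4 at -0.56 and -0.25; at SNLD1 31 of 44 members lie below 0.

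Markers of other cells also differed between the genotypes. The 4 fibroblast markers summed to 2595 to 4255 CPM in Mettl14cKO SNLD1 ganglia and 1686 to 2133 CPM in wild-type SNLD1 ganglia, and to 1960 to 3358 CPM in Mettl14cKO naive and 1707 to 1927 CPM in wild-type naive ganglia. Among single markers, edgeR called Dcn higher and Nefh, a neurofilament of large neurons, lower, averaged over conditions (log2 0.74 and -0.83; adjusted p = 0.00609 and 0.000120). Of the glial markers it called Ncmap, of myelinating Schwann cells, higher (0.87, adjusted p = 0.00385 by edgeR) and Fabp7, of satellite glia, lower (-1.34, adjusted p = 0.0418). No other of the 12 sensory neuron markers and no other of the 6 myelinating Schwann cell markers was called in that comparison. Of the 12, edgeR called Nefh (log2 -0.92, adjusted p = 0.00360) and Scn10a (-0.64, adjusted p = 0.0479) lower at SNLD1. In naive ganglia it called Nefh alone of them (-0.75, adjusted p = 0.0305). The sums of the 12 overlapped between genotypes at SNLD1 but not in naive ganglia (at most 15600 CPM in Mettl14cKO, at least 15606 CPM in wild type). The 6 myelinating Schwann cell markers summed to 3742 to 4114 CPM in Mettl14cKO SNLD1 and 2792 to 4926 CPM in wild-type SNLD1 ganglia. In naive ganglia they summed to 3381 to 3971 CPM in Mettl14cKO and 3141 to 4384 CPM in wild type, with overlap in both conditions. The 5 satellite glia markers summed to 2257 to 2396 CPM in Mettl14cKO SNLD1 and 2791 to 4017 CPM in wild-type SNLD1 ganglia, without overlap, and to 2307 to 3759 CPM in Mettl14cKO naive and 3041 to 3967 CPM in wild-type naive ganglia, with overlap; 4 of the 5 lay below 0 on average. The 3 endothelial markers summed to 20.9 to 27.2 CPM in Mettl14cKO SNLD1 and 12.1 to 20.2 CPM in wild-type SNLD1 ganglia, and to 17.2 to 21.9 CPM in Mettl14cKO naive and 13.3 to 17.5 CPM in wild-type naive ganglia; all 3 lay above 0 on average and none was called. Of the 4 fibroblast markers 2 lay above and 2 below 0, and Dcn alone was called. All 5 neutrophil markers lay below 0 (median -1.04) and none was called. The part of these differences in the values of Srsf10 and Elavl4 was not tested.

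The injury comparison asked what changed 1 day after the lesion. No member was called in Mettl14cKO (0 of 44 by edgeR, background 0.685%) or wild type (0 of 44, background 1.02%), and DESeq2 called none in either. At an unadjusted p under 0.05 there were 5 members in Mettl14cKO and 1 in wild type, counts given without the share of all genes and not read as a result about the members. The members' median was -0.10 in Mettl14cKO (all genes 0.01; 25 of 44 below 0) and 0.01 in wild type (all genes -0.01; 21 of 44 below 0).

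Averaged over genotypes no member was called (0 of 44 by edgeR, background 2.56%, and 0 by DESeq2). An unadjusted p under 0.05 was reached by 6 members, again without the share of all genes beside it. The smallest p-value among members higher at SNLD1 was that of Srsf5, an SR protein that shuttles between nucleus and cytoplasm. It was at 402, 353 and 472 CPM in Mettl14cKO SNLD1 ganglia, 314, 256 and 322 CPM in Mettl14cKO naive ganglia, 359.9, 420.3 and 416 CPM in wild-type SNLD1 ganglia and 352, 389 and 284 CPM in wild-type naive ganglia. The Mettl14cKO groups did not overlap and the wild-type groups did. Its averaged log2 difference was 0.34 ± 0.11 (edgeR adjusted p = 0.156), with 0.46 in Mettl14cKO and 0.22 in wild type. Hnrnpa2b1 was at 151, 124 and 173 CPM in Mettl14cKO SNLD1 ganglia, 111, 86.8 and 107 CPM in Mettl14cKO naive ganglia, 116, 164 and 131 CPM in wild-type SNLD1 ganglia and 109, 158 and 84.98 CPM in wild-type naive ganglia. Again the Mettl14cKO groups stood apart and the wild-type groups overlapped, and the averaged difference was 0.39 ± 0.15 (adjusted p = 0.223 by edgeR); without wild-type naive library 2 it was 0.53 (adjusted p = 0.0391).

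Rbfox2 was at 58.96, 54.3 and 62.6 CPM in Mettl14cKO SNLD1 ganglia, 41.4, 52.02 and 58.9 CPM in Mettl14cKO naive ganglia, 73.9, 53.6 and 79.9 CPM in wild-type SNLD1 ganglia and 58.4, 50.3 and 51.01 CPM in wild-type naive ganglia, with overlap in both genotypes and an averaged log2 difference of 0.29 (edgeR adjusted p = 0.313). In wild type it had the smallest p of any member (0.38, adjusted p = 0.661). Rbfox3 was at 12.4, 11.7 and 14.2 CPM in Mettl14cKO SNLD1 ganglia, 14.5, 11.7 and 16.1 CPM in Mettl14cKO naive ganglia, 14.7, 9.95 and 17.2 CPM in wild-type SNLD1 ganglia and 20.6, 10.2 and 22.2 CPM in wild-type naive ganglia, lowest in the wild-type libraries numbered 2, with log2 differences of -0.15 in Mettl14cKO and -0.36 in wild type. Rbfox1, the remaining member, had -0.18 and -0.01 for the same comparisons. Srsf3 stood at 368, 414 and 340 CPM in Mettl14cKO SNLD1 and 348, 336 and 277 CPM in Mettl14cKO naive, and at 331, 409 and 293 CPM in wild-type SNLD1 and 252, 341 and 227 CPM in wild-type naive ganglia. The groups overlapped in both genotypes, with log2 differences of 0.22 in Mettl14cKO and 0.34 in wild type.

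Srsf7 was at 185, 176 and 198 CPM in Mettl14cKO SNLD1 ganglia, 190.1, 192 and 158 CPM in Mettl14cKO naive ganglia, 205, 229 and 238 CPM in wild-type SNLD1 ganglia and 166, 248 and 153 CPM in wild-type naive ganglia, with log2 differences of 0.05 in Mettl14cKO and 0.25 in wild type. Hnrnpa1, which encodes a repressor of exon inclusion, was at 12.4, 14.1 and 14.4 CPM in Mettl14cKO SNLD1 ganglia, 10.8, 10.999 and 10.4 CPM in Mettl14cKO naive ganglia, 14.3, 18.6 and 11.8 CPM in wild-type SNLD1 ganglia and 14.02, 13.2 and 11.6 CPM in wild-type naive ganglia, with 0.35 in Mettl14cKO and 0.21 in wild type. Neither passed the test in either genotype.

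On the lower side, Srsf12, an SR protein that opposes the activity of other SR proteins, was at 20.6, 17.1 and 27.4 CPM in Mettl14cKO SNLD1 ganglia, 23.8, 28.1 and 33.3 CPM in Mettl14cKO naive ganglia, 21.9, 22.3 and 20.7 CPM in wild-type SNLD1 ganglia and 25.3, 33.5 and 22.3 CPM in wild-type naive ganglia; its averaged log2 difference was -0.35 (edgeR adjusted p = 0.288). Hnrnpr, which encodes a protein carried into axons of motor neurons, was at 25.2, 24.8 and 27.6 CPM in Mettl14cKO SNLD1 ganglia, 36.3, 31.1 and 29.8 CPM in Mettl14cKO naive ganglia, 22.5, 27.2 and 25.02 CPM in wild-type SNLD1 ganglia and 28.9, 26.5 and 28.4 CPM in wild-type naive ganglia. It averaged -0.24 (adjusted p = 0.367, edgeR) and the log2 difference of Srsf6, an SR activator of exon inclusion, was -0.42 in Mettl14cKO and -0.05 in wild type. Srsf6 stood at 33.03, 34.95 and 32.4 CPM in Mettl14cKO SNLD1, below the 42.9, 43.99 and 47.4 CPM of Mettl14cKO naive ganglia. Nova1, the neuronal regulator that binds YCAY motifs, was at 2.31, 1.55 and 2.95 CPM in Mettl14cKO SNLD1 ganglia, 3.89, 2.79 and 3.10 CPM in Mettl14cKO naive ganglia, 2.15, 3.55 and 2.68 CPM in wild-type SNLD1 ganglia and 5.90, 3.41 and 2.28 CPM in wild-type naive ganglia. The groups overlapped in both genotypes, with log2 differences of -0.52 ± 0.40 in Mettl14cKO and -0.45 ± 0.37 in wild type. Nova2, its relative, was below the count filter at 0.149 to 0.920 CPM.

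Of the polypyrimidine tract pair, Ptbp2 was at 165, 158 and 179 CPM in Mettl14cKO SNLD1 ganglia, 143, 186 and 157 CPM in Mettl14cKO naive ganglia, 171, 199 and 166 CPM in wild-type SNLD1 ganglia and 149.7, 193 and 129 CPM in wild-type naive ganglia. Its injury differences were 0.05 in Mettl14cKO and 0.19 in wild type, and those of Ptbp1, its counterpart outside neurons, 0.09 and -0.02 at 4.48 to 8.97 CPM. The groups of both genes overlapped in each genotype. Hnrnpc was at 373, 368 and 371 CPM in Mettl14cKO SNLD1 ganglia, 384, 366 and 333 CPM in Mettl14cKO naive ganglia, 399.9, 472 and 439 CPM in wild-type SNLD1 ganglia and 383, 438 and 339 CPM in wild-type naive ganglia, with injury differences of 0.04 and 0.18.

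**Figure D5:**
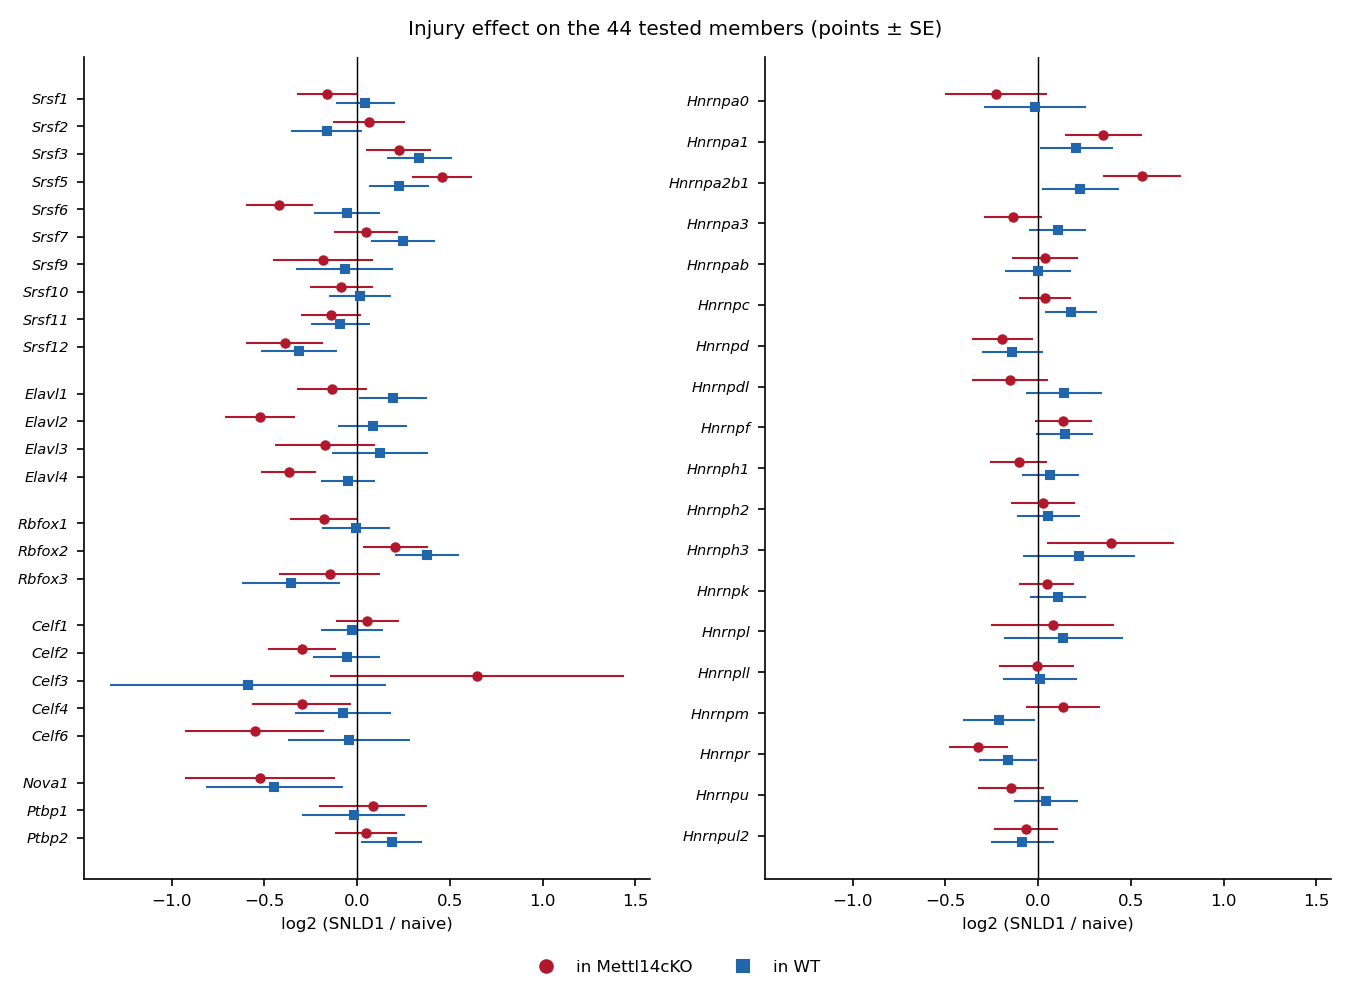
log2 ratio of SNLD1 over naive with its standard error for the 44 tested members, in Mettl14cKO (circles) and wild type (squares), by family. In Mettl14cKO Elavl2 is at -0.53 and Hnrnpa2b1 at 0.56; no member passed the test in either genotype.

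The injury effect itself was compared between genotypes. No member and no gene was called (edgeR; background 0%), with 1 member and 492 genes at an unadjusted p under 0.05; DESeq2 called 3 genes and no member. That member was Elavl2, whose injury difference was -0.53 in Mettl14cKO and 0.08 in wild type, a difference of -0.61 ± 0.27 on the log2 scale (unadjusted p = 0.0345, adjusted p = 0.998 by edgeR). By library, Elavl2 was at 266, 214 and 314 CPM in Mettl14cKO SNLD1 ganglia and 315, 435 and 393 CPM in Mettl14cKO naive ganglia, which do not overlap, whereas the wild-type groups do. All 4 Elavl genes lay below 0 in this comparison (median -0.32) and 32 of 44 members (median -0.11), against 48.4% of all genes (median 0.01). The comparisons of genotype at SNLD1 and of injury in Mettl14cKO share the Mettl14cKO SNLD1 libraries, so the low Elavl values in both are not separate observations.

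Other genes of RNA processing were counted beside the members. Averaged over conditions, the genotype comparison called 1 of 12 tested SR-related splicing activators higher in Mettl14cKO, Pnn, which encodes the splicing-associated protein pinin (log2 0.55, edgeR adjusted p = 0.0237). Of 41 other splicing and RNA-binding regulators it called 1 lower, Mbnl1, a muscleblind splicing regulator, which fell by 0.68 on the log2 scale (adjusted p = 0.00664, edgeR). Of 15 genes of the m6A machinery it called 2 lower, Mettl14 and Mettl3 (the catalytic partner of METTL14), which fell by 0.46 and 0.55. None of 8 SR protein kinases and phosphatase-linked regulators was called, with 7 below 0 and a median of -0.23, and none of 33 core spliceosome genes, with 14 below 0 and a median of 0.09. At SNLD1 Mbnl1 fell by 0.79 (adjusted p = 0.0389, edgeR), the only gene of these 5 lists called there. No gene of these 5 lists was called in any injury or MeRIP-seq comparison.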

How the data were processed

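Gene counts of 12 RNA-seq libraries and 10 MeRIP-seq libraries were deposited by the authors as raw counts per gene symbol, neither normalized nor pooled. The miCLIP data are the authors' deposited lists of single bases, 1 library each, whose score is the share of reads over the base that carry a mutation. Per the submitters' processing notes Trimmomatic, STAR, DESeq2 and the mm10 genome were used, with versions and roles not given in the sources used here, and likewise for the read counter and site caller. Samples were grouped by their labels.

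Here the counts were tested with edgeR 4.0.16 (R 4.3.3) by the quasi-likelihood test, after filterByExpr and TMM scaling, in 1 fit per table over all its groups. The Benjamini-Hochberg adjustment ran over all genes tested, and the threshold was an adjusted p of 0.05. DESeq2 1.42.0, DESeq2 size factors, no filter, a replicate block, leaving out each library and, after seeing the data, leaving out the pair of wild-type libraries numbered 2, both pulldowns numbered 3 or the 3 shallowest MeRIP-seq libraries were the alternatives. miCLIP sites were assigned to RefSeq gene spans on their strand with Python 3.11.15, and exact binomial intervals come from scipy 1.17.1. The tests were tested on simulated data.

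Values per library are given for members called, for as many as 3 per direction with the lowest p, for the 8 with most sites, and for a set of well-known members. The members and gene lists were chosen with earlier results of these data known. In MeRIP-seq the library numbers paired naive with SNLD1 pulldowns (correlations of deviations 0.682, 0.468 and 0.734) and inputs (0.408), and a block by number within each kind left the change with injury at 0 members called. Depth was 5707837 to 12639160 counts per RNA-seq library and 846785 to 19653733 per MeRIP-seq library.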

Additional observations from a re-analysis of the deposited data

How the results depend on the processing

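In the genotype comparison at SNLD1, where edgeR called no member, DESeq2 and the fit with no filter on low counts each called 2 (Elavl4 and Srsf10; background 3.13% and 2.69% of genes), and leaving out each library gave 0 to 1. RNA-seq library numbers did not pair the samples throughout, since same-numbered deviations correlated at -0.0601 to 0.574. The highest were those of wild-type naive with wild-type SNLD1 library 2 (0.574) and of Mettl14cKO naive with Mettl14cKO SNLD1 library 3 (0.349). With the number as a replicate block 1 member was called at SNLD1 (Elavl4, edgeR adjusted p = 0.0458, background 2.15%) and 2 averaged over conditions (background 4.47%). The 2 members called averaged over conditions became 0 to 2 with 1 library left out, and injury averaged over genotypes gave 0 to 1. With no filter on low counts 3 members were called averaged over conditions, Celf6 among them (edgeR adjusted p = 0.0308, background 4.05% of genes). Celf6 was also called in 1 of the 12 fits that left out 1 library, without wild-type SNLD1 library 2 (edgeR adjusted p = 0.0466). In MeRIP-seq, pulldown and input of one number did not deviate together (-0.289 to -0.0173). With the replicate block, edgeR called 6 members lower in the naive pulldowns (Ptbp2, Hnrnpc, Srsf3, Hnrnpk, Srsf10 and Srsf7, background 7.33% of genes called in either direction) and 5 at SNLD1 (all of these but Srsf10, background 6.37%). No pulldown numbered 3 has an input of its number. By construction the block takes up the mean level of both pulldowns numbered 3, so the enrichments of that fit rest largely on pulldowns 1 and 2. Those numbered 3 still enter through their difference between conditions, the scaling and the estimate of spread. Without both pulldowns numbered 3, 1 member was called at SNLD1 (Hnrnpc). With at least 3 mutated reads required, 1 SNL and 2 naive member sites remained in 3 members, with 0 at the same base.

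With 1 library left out in turn, Nova1 with injury in wild type ranged between -0.75 and 0.00901 (log2), above 0 without wild-type naive library 1. For the change of enrichment with injury the ranges were -0.11 to 3.31 for Srsf2 and -0.40 to 1.71 for Hnrnpu (lowest without naive input 2), -4.25 to 3.44 for Celf5, -3.58 to 1.15 for Srsf4 and -1.24 to 0.0741 for Hnrnpm (highest without SNLD1 input 2, and also above 0 without naive pulldown 1 for Srsf4, 0.0297, and Hnrnpm, 0.0389); the cause was not tested. Counts over all genes moved by over 1.5 times under DESeq2 (genotype at SNLD1 416 against 194, genotype in naive 77 against 38, injury in Mettl14cKO 192 against 91, injury in wild type 211 against 136) and with no filter (570, 191, 281 and 256 in the same order, then 857 against 442 for genotype averaged over conditions and 560 against 340 for injury averaged over genotypes). With 1 library left out they ranged over 37 to 262 for genotype at SNLD1, 12 to 46 for genotype in naive, 228 to 507 for genotype averaged, 48 to 116 for injury in Mettl14cKO, 61 to 146 for injury in wild type and 212 to 372 for injury averaged. DESeq2 size factors moved no count of members. The miCLIP lists have 1 library per condition, and the shallowest MeRIP-seq library held 846785 counts.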

Other observations

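The inputs numbered 1 of SNLD1 and naive ganglia differed less from each other than any other pair of MeRIP-seq libraries (chi-square per degree of freedom 3.52, against 11.03 to 587 for the other 44 pairs), though more than sampling noise, so they were kept as separate samples. Among members, the spread between RNA-seq libraries of a group was smaller than over all genes, with a median SD of 0.22 against 0.30 on the log2 scale.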
